A study of Mus musculus with 4 samples.

Results

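The genes described here are the mouse Zfp zinc finger genes, that is, protein-coding genes whose symbol is Zfp followed only by digits, without Zfp36. Members were those whose mean of size-factor scaled counts over the control-lentivirus libraries was 100 or more, which 133 of 343 such genes in the deposited tables met, among 20089 genes in all. The other 210 lay below that floor. Because the floor used measured values, it says nothing on its own, and members that pass it only through a library in which they are high are bound to differ between libraries. The nearest members inside the floor were Zfp946, Zfp101 and Zfp97, with means of 101.4, 101.7 and 102.3 scaled counts, and the nearest genes outside it were Zfp408, Zfp532 and Zfp958, with 99.7, 97.5 and 95.7.

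RNA sequencing was done on HT22 cells, an immortalised line labelled as hippocampal neurons of the C57BL/6 strain. Cells had received a lentivirus targeted against Neat1, a nuclear long noncoding RNA on which paraspeckles are built, or a control negative lentivirus. Each kind of cell was kept without oxygen and glucose (OGD, a culture model of ischaemia) or in DMEM/F12 with 10% FBS, called normal culture here. There were 4 libraries, 1 for each combination: Neat1 lentivirus under OGD, control lentivirus under OGD, Neat1 lentivirus in normal culture and control lentivirus in normal culture. With 1 library per group, no difference below has a replicate check and no test was run. A 2-fold ratio is a rule of size only. Every group had received a lentivirus, and how long OGD lasted is not given in the sources used here.

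Libraries held between 17232866 and 20764430 reads assigned to genes. No member was at 0 reads in any library, and the median member had between 246 and 341 reads. Neat1 stood at 42.1 CPM with the Neat1 lentivirus and 74.4 CPM with the control lentivirus under OGD, and at 120.7 and 193.2 CPM in normal culture. The labelled cell type was checked against 16 neuron markers, whose summed level was 251.6 CPM with the Neat1 lentivirus under OGD, 88.7 CPM with control lentivirus under OGD, 35.0 CPM with the Neat1 lentivirus in normal culture and 3719 CPM with control lentivirus in normal culture. That sum was carried mostly by Nrgn at 1095 CPM, Pcsk1n at 887 CPM and Ddn at 544 CPM. Of the 16 markers, 12 were highest in control cells in normal culture, Camk2a among them only narrowly. Map2, Snap25 and Stmn2 were highest with the Neat1 lentivirus under OGD, and Tubb3 with control lentivirus under OGD. In the order of the neuron sums, 6 fibroblast or mesenchyme markers summed to 2232, 4260, 2902 and 4238 CPM, above the neuron sum in each library. Most of that came from Col1a1 and Acta2. Members that stand high in control cells in normal culture are given separately below. All 10 genes of a hypoxia reference list, among them Ndrg1, Vegfa and Bnip3, were at least 2-fold higher under OGD with either lentivirus.

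Zfp genes encode proteins built mainly of C2H2 zinc fingers, short folds held by cysteines and histidines around a zinc ion, which bind DNA and sometimes RNA or protein. Many carry a KRAB domain ahead of the fingers, which recruits the corepressor Trim28 and through it histone methylation, and these serve in silencing of transposons and of imprinted loci. Others act as activators, chromatin partners, ribosome factors or ubiquitin ligases.

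Over the 133 members many genes stood higher or lower under OGD, and the middle of the family lay near 0. Ratios are log2 ratios of scaled counts, OGD over normal culture or Neat1 over control lentivirus, with 10 added to each side. With the Neat1 lentivirus the median log2 ratio for OGD was 0.17 over the members, against 0.04 over 9803 protein-coding genes at the same floor. With control lentivirus it was 0.11 over the members, against 0.08 over those genes. The Neat1 lentivirus over control lentivirus gave medians of 0.05 under OGD and -0.08 in normal culture, against -0.06 and -0.03 over protein-coding genes. The interquartile range of the members' ratios ran from -0.58 to 0.70 for OGD with the Neat1 lentivirus and from -0.46 to 0.72 with control lentivirus, so the medians are small beside the spread among genes.

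Under OGD with the Neat1 lentivirus, 24 members were at least 2-fold higher and 18 at least 2-fold lower, or 18.05% and 13.5% of members. Of protein-coding genes at the floor 15.8% were higher and 12.1% lower, so the members' shares lie near the background. With control lentivirus 21 members were higher and 20 lower (15.8% and 15.0%), beside 10.6% and 12.4% of protein-coding genes; the floor was set on these same 2 libraries, so nothing is read from those shares. Of the 21, 10 did not stay above 2-fold under every other scaling tried, and with total counts 11 were higher and 27 lower. Total counts shift the median of all protein-coding genes in that comparison by -0.31 on the log2 scale.

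The 2 OGD comparisons share no library. Across members their log2 ratios had a Pearson r of 0.62 and a Spearman rho of 0.65 (n = 133 genes, which share libraries and are not replicates), and 100 members had the same sign in both, 59 above 0 and 41 below. Across all protein-coding genes at the floor r was 0.15, the rho was 0.53 and 72.7% had the same sign, close to the 75.2% of members. Without the genes that stand high in control cells in normal culture, r was 0.67 over 127 members and 0.69 over 9235 protein-coding genes. Those genes were chosen on a library of 1 of the 2 ratios. The change in r is bound up with that choice, and nothing is read from it. No member was at least 2-fold higher in 1 comparison and at least 2-fold lower in the other. Of protein-coding genes at the floor, 341 (3.48%) were higher with the Neat1 lentivirus and lower with control lentivirus. Only 2 (0.0204%) went the other way. These shares are small, so nothing is read from the lack of such members.

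**Figure D1:**
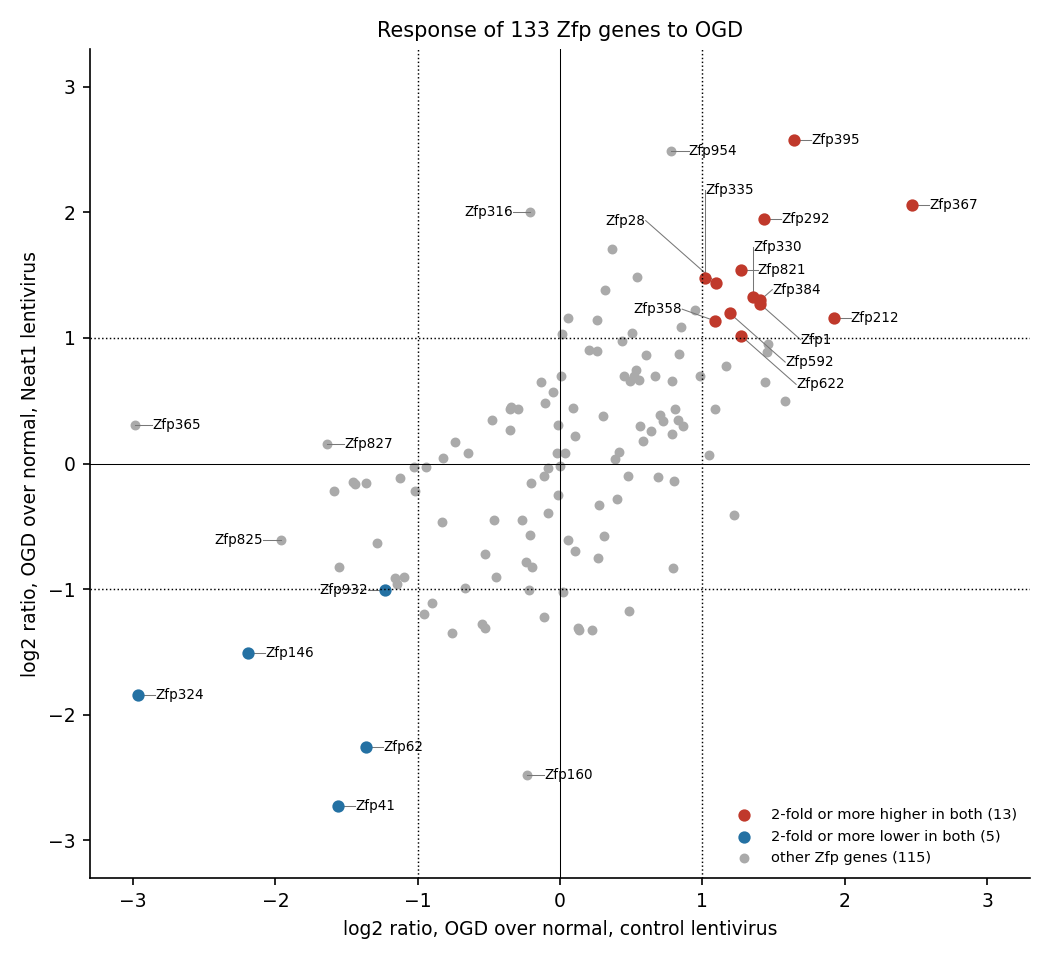
Each point is 1 of 133 Zfp genes, with its log2 ratio of OGD over normal culture with the Neat1 lentivirus on the vertical axis and with control lentivirus on the horizontal axis (10 added to each side, dotted lines at 2-fold, 1 library per group). Red marks the 13 genes at least 2-fold higher in both, blue the 5 at least 2-fold lower in both, and Zfp365 and Zfp827 lie far left near 0 on the vertical axis.

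A group of 13 members was at least 2-fold higher under OGD with both lentiviruses, 9.77% of members beside 6.51% of protein-coding genes. They were Zfp1, Zfp212, Zfp28, Zfp292, Zfp330, Zfp335, Zfp358, Zfp367, Zfp384, Zfp395, Zfp592, Zfp622 and Zfp821. They make up 54.2% of the 24 members higher with the Neat1 lentivirus and 61.9% of the 21 higher with control lentivirus. The floor was set on the control-lentivirus libraries, which this call also uses, so nothing is read from these shares. With total counts 7 of them remained (Zfp1, Zfp212, Zfp292, Zfp330, Zfp367, Zfp384 and Zfp395), with TMM or median-of-ratios scaling 12.

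Zfp367 (ENSMUSG00000044934, chromosome 13, 64133018 to 64153202 on GRCm38, minus strand), whose human counterpart was described as an activator of erythroid promoters, had the highest ratio of any member with control lentivirus. It stood at 46.4 CPM under OGD and 10.7 CPM in normal culture with the Neat1 lentivirus, and at 49.99 CPM under OGD and 8.98 CPM in normal culture with control lentivirus. Both OGD libraries were above both normal libraries, and the level differed little between lentiviruses. The log2 ratio was 2.06 with the Neat1 lentivirus and 2.47 with control lentivirus. Counting intervals, which are 95% exact conditional binomial intervals of the read ratio without the added 10, ran from 1.90 to 2.33 and from 2.31 to 2.79. They cover counting error only, and the labels name no molecular identifiers.

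Zfp395 (ENSMUSG00000034522, chromosome 14, 65358389 to 65398930, plus strand), the counterpart of a human gene known to be induced by hypoxia, had the highest ratio of any member with the Neat1 lentivirus. It stood at 134 CPM under OGD and 21.8 CPM in normal culture with that virus, and at 100.4 CPM under OGD and 33.4 CPM in normal culture with control lentivirus. Its log2 ratios were 2.58 (counting interval 2.47 to 2.75) and 1.64 (1.53 to 1.80). The OGD libraries again stood above both normal libraries.

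Zfp292 (ENSMUSG00000039967, chromosome 4, 34803113 to 34882960, minus strand) encodes a large finger protein whose human counterpart is mutated in a neurodevelopmental disorder. It stood at 28.8 CPM under OGD and 7.08 CPM in normal culture with the Neat1 lentivirus, and at 11.1 CPM under OGD and 3.93 CPM in normal culture with control lentivirus. It was the only gene of the 13 that was also at least 2-fold higher with the Neat1 lentivirus under OGD, at a log2 ratio of 1.33 (1.13 to 1.64).

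Zfp212 (chromosome 6) stood at 39.0 CPM under OGD and 17.04 CPM in normal culture with the Neat1 lentivirus, and at 26.4 CPM under OGD and 6.88 CPM in normal culture with control lentivirus. It was the only one of the 13 past 2-fold for the Neat1 lentivirus in normal culture, with a log2 ratio of 1.25 (1.02 to 1.60).

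Several other genes of the group sat at higher levels. Zfp622, a cytoplasmic factor of the large ribosomal subunit, stood at 198 CPM under OGD and 96.8 CPM in normal culture with the Neat1 lentivirus, and at 211 CPM under OGD and 91.6 CPM in normal culture with control lentivirus. Zfp384, a nuclear matrix protein that binds A- and T-rich DNA, stood at 104 and 41.5 CPM with the Neat1 lentivirus and at 98.5 and 38.7 CPM with control lentivirus, each pair with OGD before normal culture. Zfp330, a nucleolar protein, stood in the same order at 83.0 and 32.6 CPM and at 65.0 and 26.3 CPM. All 3 were alike between lentiviruses and apart between cultures.

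Zfp335, part of a histone methyltransferase complex and mutated in human microcephaly, stood at 55.6 CPM under OGD and 19.5 CPM in normal culture with the Neat1 lentivirus, and at 53.4 CPM under OGD and 27.4 CPM in normal culture with control lentivirus. Its exons share 23.3% of their bases with Pcif1 on the other strand. Of the members 18 share at least 10% of their exon bases with 1 other gene. Among them are Zfp367 at 10.9% on the other strand and Zfp524 at 46.5% on the same strand. The libraries were made with a dUTP method, which marks strand, but whether counting used strand is not given in the sources used here. The log2 ratios of Zfp1, Zfp28, Zfp358, Zfp592 and Zfp821 lay between 1.14 and 1.54 with the Neat1 lentivirus and between 1.09 and 1.41 with control lentivirus.

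**Figure D2:**
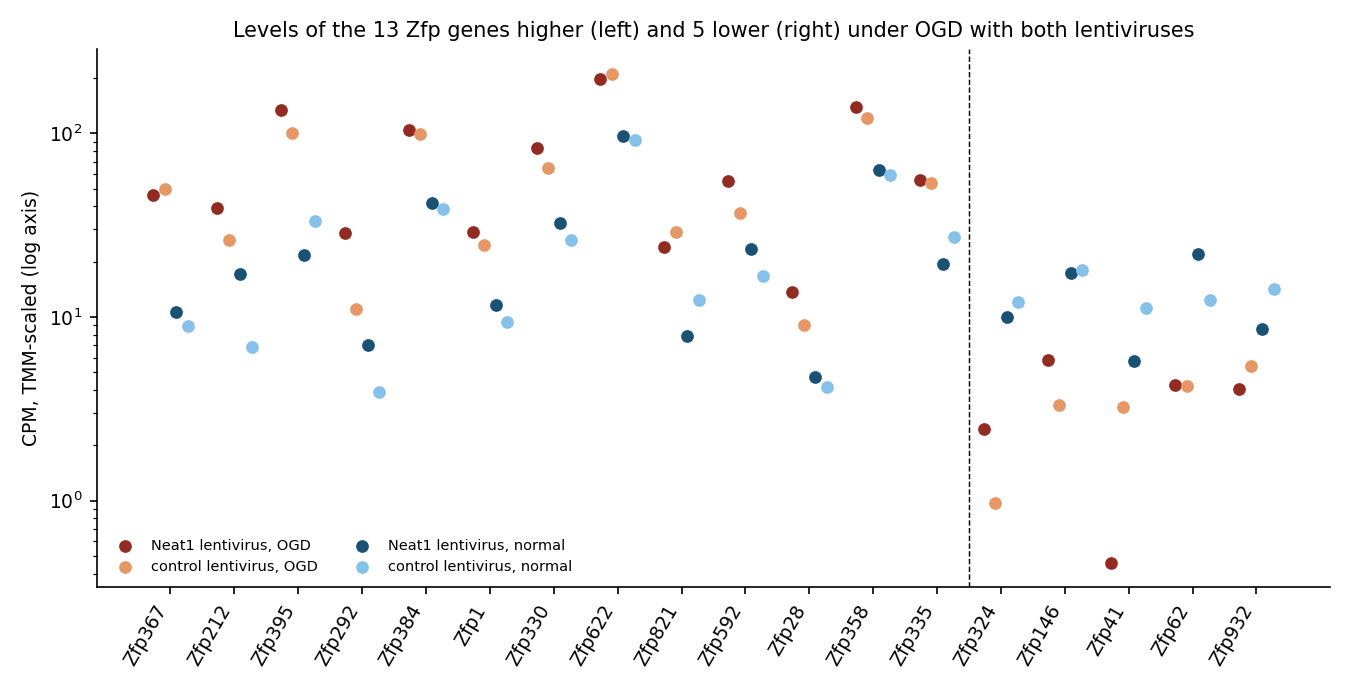
Levels in CPM (TMM-scaled, log axis) of the 13 Zfp genes at least 2-fold higher (left of the dashed line) and the 5 at least 2-fold lower (right) under OGD with both lentiviruses, 1 point per library. Both OGD libraries lie above both normal libraries for each of the 13, and below them for each of the 5.

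A group of 5 members was at least 2-fold lower under OGD with both lentiviruses, 3.76% of members beside 4.27% of protein-coding genes: Zfp146, Zfp324, Zfp41, Zfp62 and Zfp932. They make up 27.8% of the 18 members lower with the Neat1 lentivirus and 25% of the 20 lower with control lentivirus. All 5 met the floor only through control cells in normal culture. Their lower ratios with control lentivirus are thus bound up with the floor, and nothing is read from these shares. All 5 had few reads in the OGD libraries, so their reads are given. Zfp932 had 79 reads under OGD and 184 in normal culture with the Neat1 lentivirus, and 83 and 277 with control lentivirus. It lay near the threshold and was not past it under every scaling. Its protein is 92.6% identical to that of Gm15446, so its reads may be split.

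Zfp324 (ENSMUSG00000004500, chromosome 7, 12965838 to 12974236, plus strand) had 48 reads under OGD and 215 in normal culture with the Neat1 lentivirus, and 15 reads under OGD and 236 in normal culture with control lentivirus. That is a read ratio 4.11-fold lower under OGD with the Neat1 lentivirus and 11.7-fold lower with control lentivirus. Zfp146 (ENSMUSG00000037029, chromosome 7, 30161269 to 30169750, minus strand), a protein made almost wholly of fingers, had 114 reads under OGD and 373 in normal culture with the Neat1 lentivirus, and 51 under OGD and 354 in normal culture with control lentivirus. These 2 genes had more reads under OGD with the Neat1 lentivirus than with control lentivirus, while in normal culture the lentiviruses were close.

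Zfp41 (chromosome 15) had 9 reads under OGD and 124 in normal culture with the Neat1 lentivirus, and 50 under OGD and 220 in normal culture with control lentivirus. It was the lowest member in the Neat1 library under OGD and had the lowest OGD ratio there, -2.73, which the added 10 draws toward 0 (counting interval of the read ratio -4.82 to -2.69). Zfp62 (chromosome 11) had 83 reads under OGD and 472 in normal culture with the Neat1 lentivirus, and 65 under OGD and 242 in normal culture with control lentivirus. Lower levels under OGD were thus seen with both lentiviruses, on 9 to 114 reads per gene in the OGD libraries. Those with control lentivirus are bound up with the floor.

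Promoter sequence was available for 105 members in the RefSeq table on GRCm38.p6. Windows of 250 bases before the start site nearest to the annotated gene start were searched on both strands for ACGTG and GCGTG, the core letters of the hypoxia response element. ACGTG also lies within the E-box CACGTG. Of the 12 genes higher with both lentiviruses that had a window, 8 (66.7%) held a match, as did 1 of 4 (25%) of those lower and 55 of 105 members (52.4%). Of all genes at 1 window each 38.6% held a match, and of those among the protein-coding genes at the floor 60.5%. For these backgrounds the window was the first listed for each gene, not the one nearest to the annotated start. The windows of members and background were thus chosen by different rules. The median GC content of the windows was 62.6%, 52.0% and 57.2% in those 3 sets of members, in the same order, and 60.8% over protein-coding genes at the floor. A match is a description of letters and not a binding site. To show such promoters at both ends, the windows of the 3 genes higher and the 2 lower whose smaller ratio of the 2 comparisons was largest are printed, among those with a window (Zfp395 and Zfp41 had none), with matches in capitals:

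Zfp367, GRCm38.p6, chr13:64153200-64153449, minus strand: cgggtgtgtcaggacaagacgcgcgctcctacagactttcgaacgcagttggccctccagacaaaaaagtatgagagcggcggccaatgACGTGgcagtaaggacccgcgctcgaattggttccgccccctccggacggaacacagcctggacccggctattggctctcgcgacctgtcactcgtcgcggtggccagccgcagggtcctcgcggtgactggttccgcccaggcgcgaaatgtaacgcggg

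Zfp292, GRCm38.p6, chr4:34882949-34883198, minus strand: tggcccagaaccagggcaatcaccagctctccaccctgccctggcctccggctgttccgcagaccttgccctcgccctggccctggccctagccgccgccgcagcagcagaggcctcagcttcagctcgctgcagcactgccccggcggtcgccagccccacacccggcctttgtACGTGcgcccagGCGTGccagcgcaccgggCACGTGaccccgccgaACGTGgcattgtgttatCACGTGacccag

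Zfp330, GRCm38.p6, chr8:82774146-82774395, minus strand: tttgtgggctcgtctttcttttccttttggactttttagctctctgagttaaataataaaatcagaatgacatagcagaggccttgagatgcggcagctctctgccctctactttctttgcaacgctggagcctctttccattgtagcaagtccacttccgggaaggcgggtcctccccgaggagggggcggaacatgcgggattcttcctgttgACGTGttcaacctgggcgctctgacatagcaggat

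Zfp324, GRCm38.p6, chr7:12965588-12965837, plus strand: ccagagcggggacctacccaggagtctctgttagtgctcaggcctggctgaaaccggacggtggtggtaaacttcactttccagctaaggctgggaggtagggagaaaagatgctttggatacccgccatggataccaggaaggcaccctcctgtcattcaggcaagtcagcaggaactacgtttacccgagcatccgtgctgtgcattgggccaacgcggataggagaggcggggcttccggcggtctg

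Zfp146, GRCm38.p6, chr7:30169742-30169991, minus strand: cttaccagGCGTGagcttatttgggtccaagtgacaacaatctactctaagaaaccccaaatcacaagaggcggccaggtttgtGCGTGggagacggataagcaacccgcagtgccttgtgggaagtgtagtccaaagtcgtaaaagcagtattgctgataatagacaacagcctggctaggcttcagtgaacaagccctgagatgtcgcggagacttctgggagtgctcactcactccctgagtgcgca

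Zfp292 held 7 matches in 5 stretches of capitals, since overlapping matches on opposite strands fuse into CACGTG in 2 of them. Zfp367 and Zfp330 held 1 each, Zfp146, which was lower, held 2, and Zfp324 none. Matches were thus found, and missing, among both higher and lower genes.

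Many members passed 2-fold with 1 lentivirus and not the other. With the Neat1 lentivirus alone 11 were higher (Zfp316, Zfp341, Zfp346, Zfp414, Zfp553, Zfp639, Zfp655, Zfp692, Zfp787, Zfp868 and Zfp954) and 13 lower (among them Zfp160, Zfp251, Zfp593 and Zfp646). With control lentivirus alone 8 were higher (Zfp236, Zfp410, Zfp511, Zfp524, Zfp560, Zfp598, Zfp623 and Zfp7) and 15 lower (among them Zfp365, Zfp638, Zfp825 and Zfp827). Calls with 1 lentivirus alone were also common over protein-coding genes at the floor. Of those higher with the Neat1 lentivirus 41.1% were higher with both, against 54.2% of members so called. Of those higher with control lentivirus it was 61.3% against 61.9%. Of those lower it was 35.3% against 27.8% with the Neat1 lentivirus, and 34.6% against 25% with control lentivirus. These shares use the control-lentivirus libraries that set the floor, so nothing is read from them. The difference between lentiviruses was not tested, and 68 members were under 2-fold in both.

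Zfp954 stood at 10.7 CPM under OGD and 1.49 CPM in normal culture with the Neat1 lentivirus, against 7.995 and 4.64 CPM with control lentivirus. Zfp316 stood at 20.3 CPM under OGD and 4.66 CPM in normal culture with the Neat1 lentivirus, against 14.3 and 17.5 CPM with control lentivirus. In both genes the low library was the Neat1 lentivirus in normal culture, with 32 and 100 reads. Zfp160 stood at 1.74 CPM under OGD and 11.9 CPM in normal culture with the Neat1 lentivirus, against 5.98 and 7.50 CPM with control lentivirus, and there the low library was the Neat1 lentivirus under OGD.

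Zfp598, the ubiquitin ligase that marks collided ribosomes, stood at 86.2 CPM under OGD and 81.5 CPM in normal culture with the Neat1 lentivirus, and at 131 and 66.2 CPM with control lentivirus. Zfp236, whose human counterpart was found as a glucose-regulated gene, stood at 10.3 CPM under OGD and 7.08 CPM in normal culture with the Neat1 lentivirus, and at 13.5 and 4.33 CPM with control lentivirus. Zfp410, an activator of the remodeler gene Chd4, stood at 56.3 CPM under OGD and 32.4 CPM in normal culture with the Neat1 lentivirus, and at 45.2 and 20.9 CPM with control lentivirus. Its target Chd4 was not higher under OGD, with log2 ratios of -0.81 with the Neat1 lentivirus and -0.24 with control lentivirus.

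A group of 6 members stood at least 2-fold above each other library in control cells in normal culture: Zfp365, Zfp523, Zfp651, Zfp827, Zfp865 and Zfp930. Of protein-coding genes 5.79% did so. Zfp365 (ENSMUSG00000037855, chromosome 10, 67886103 to 67912662, minus strand), a partner of the neuronal scaffold DISC1 that lacks a C2H2 match here, stood at 11.7 CPM with the Neat1 lentivirus under OGD, 6.83 CPM with control lentivirus under OGD, 9.31 CPM with the Neat1 lentivirus in normal culture and 60.9 CPM with control lentivirus in normal culture. Zfp651 stood in the same order at 16.4, 16.1, 19.0 and 52.0 CPM, and Zfp827 at 4.39, 3.84, 3.86 and 13.8 CPM. These 6 genes are high in the library in which the 16 neuron markers summed to 3719 CPM and 12 of them were highest. In that library no marker of neurons, oligodendrocytes, astrocytes, microglia, endothelium or mesenchyme was at 0 reads. Of 5 blood markers Hbb-bt and Alas2 were at 0 reads there, as they were with control lentivirus under OGD. Hba-a1 and Hba-a2 had 592 and 255 reads there. The 5 blood markers summed to 43.7 CPM in that library, against 5.62, 0.455 and 0.326 CPM in the libraries in the order above. The 6 oligodendrocyte markers summed to 246 CPM, against 93.1, 32.8 and 26.2 CPM in the libraries in the order above. Their part in the result was not tested. In bulk RNA fewer cells of a type and less RNA per cell cannot be told apart. Without the 6, 14 members were lower under OGD with control lentivirus, in place of 20. For the Neat1 lentivirus in normal culture 7 were lower, in place of 13. Both drops follow from choosing the 6 as high in the shared reference library, so nothing is read from them.

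Members grouped by role were mixed. Under OGD 15.8% of protein-coding genes at the floor were higher and 12.1% lower with the Neat1 lentivirus. With control lentivirus 10.6% were higher and 12.4% lower. These are the shares to set beside the counts here and for the lists below. Of 6 genes listed for imprint keeping and retroelement silencing 3 were at the floor: Zfp57, which protects imprinted methylation, Zfp568, which represses a placental Igf2 promoter, and Zfp932, which silences endogenous retroviruses. Their log2 ratios under OGD were -0.82, -0.39 and -1.01 with the Neat1 lentivirus and -0.20, -0.09 and -1.23 with control lentivirus, so 1 of 3 was past 2-fold with either virus. Of 19 genes listed for transcription and chromatin 14 were at the floor, with 1 higher and 0 lower under OGD with the Neat1 lentivirus and 2 higher and 2 lower with control lentivirus. The higher ones were Zfp335 with both and Zfp410 with control, the lower ones Zfp219 and Zfp827. Zfp143, Zfp148, Zfp281, Zfp462, Zfp503, Zfp516, Zfp609, Zfp64, Zfp703 and Zfp131 were under 2-fold in every comparison.

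Of 11 genes listed for RNA, ribosome or protein turnover 10 were at the floor. Under OGD with the Neat1 lentivirus Zfp622 and Zfp346, a double-stranded RNA binding protein, were higher and Zfp593, a ribosome assembly factor, was lower. With control lentivirus Zfp622 was higher and Zfp326 and Zfp638, both RNA-binding proteins, were lower. Zfp593 stood at 20.7 CPM under OGD and 51.5 CPM in normal culture with the Neat1 lentivirus, and at 31.5 and 48.1 CPM with control lentivirus, but shares 77.9% of its exon bases with a gene on the other strand. Zfp207, a spindle assembly factor, and Zfp91, a ubiquitin ligase, were under 2-fold in every comparison.

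The KRAB pathway beyond the members showed no common direction. Of 26 genes for KRAB cofactors and heterochromatin 24 were at the floor, with 1 higher and 1 lower under OGD with the Neat1 lentivirus and 1 higher and 4 lower with control lentivirus. Trim28, the corepressor itself, stood at 389 CPM under OGD and 365 CPM in normal culture with the Neat1 lentivirus, and at 487 CPM under OGD and 342 CPM in normal culture with control lentivirus. Uhrf1, which guides maintenance DNA methylation, was higher with both, at log2 ratios of 1.23 and 1.03. With control lentivirus the genes lower were Atf7ip, Chd3, Mphosph8 and Smarcad1, of which Atf7ip and Mphosph8 act with Setdb1 in heterochromatin. Chd3 stood at 36.9 CPM with the Neat1 lentivirus under OGD, 27.4 CPM with control lentivirus under OGD, 28.3 CPM with the Neat1 lentivirus in normal culture and 142.7 CPM with control lentivirus in normal culture, so it shares the pattern of the 6 genes above. Its log2 ratio for OGD was 0.37 with the Neat1 lentivirus and -2.28 with control lentivirus.

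A KRAB pattern was found in the coding sequence of 39 members and not in 94. Under OGD with the Neat1 lentivirus the median log2 ratio was -0.22 over the 39, with 5 higher and 8 lower at 2-fold, and 0.30 over the 94, with 19 higher and 10 lower. With control lentivirus it was -0.05 over the 39, with 4 higher and 7 lower, and 0.26 over the 94, with 17 higher and 13 lower. The shares with the Neat1 lentivirus were 12.8% and 20.5% of the 39, and 20.2% and 10.6% of the 94. With control lentivirus they were 10.3% and 17.9% of the 39, and 18.1% and 13.8% of the 94. Of protein-coding genes at the floor 15.8% and 12.1% were higher and lower with the Neat1 lentivirus, and 10.6% and 12.4% with control lentivirus. The difference of medians was -0.52 with the Neat1 lentivirus and -0.31 with control lentivirus, and it kept its sign in both comparisons under the 3 other scalings, with 1 or 50 added, in FPKM, and without the near copies or the 6 genes above. The interquartile ranges overlapped, at -0.83 to 0.50 over the 39 and -0.27 to 0.84 over the 94 with the Neat1 lentivirus. The KRAB genes also had lower transcript GC (median 45.8% against 53.3%), lower levels (median of the mean FPKM 3.43 against 9.18) and more fingers (median 11 against 6). Their separate parts were not tested. KRAB genes higher with both lentiviruses were Zfp1 and Zfp28, and those lower were Zfp324 and Zfp932.

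**Figure D3:**
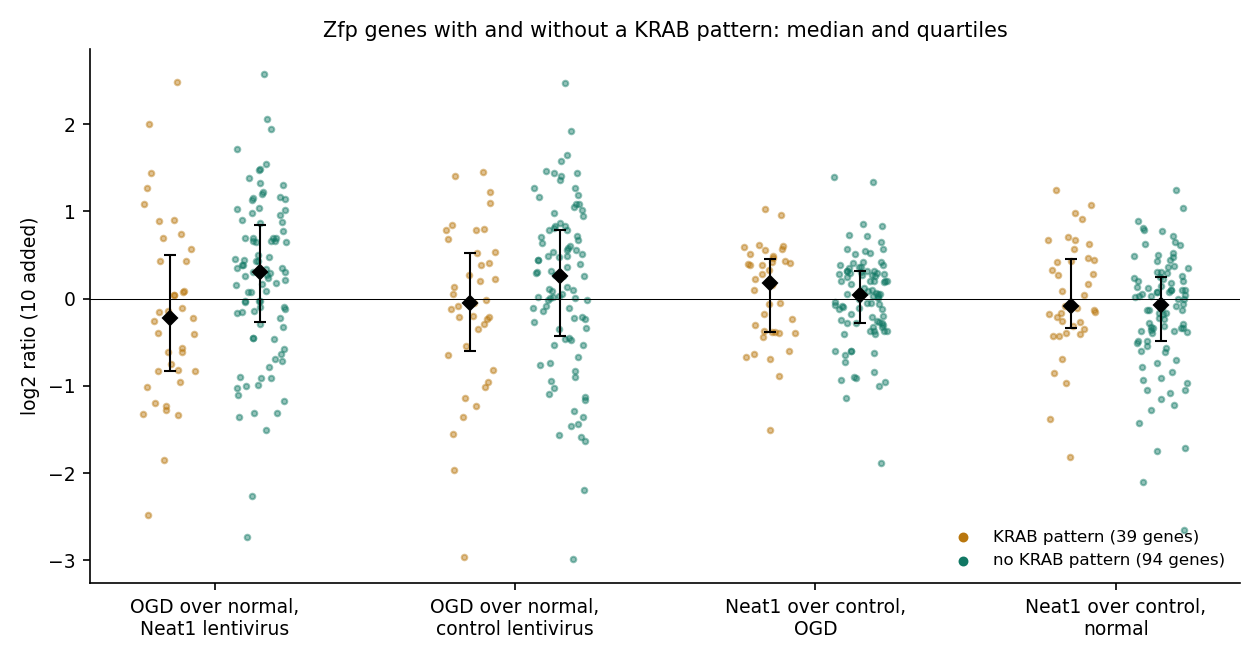
Log2 ratios of each of the 39 Zfp genes with a KRAB pattern (orange) and the 94 without (green) in the 4 comparisons, with the median as a diamond and quartiles as bars. Under OGD the medians of the KRAB genes are lower than those of the others with either lentivirus, and the quartile ranges overlap.

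Level went with the OGD ratio among members. Of 33 members with a mean of 500 or more scaled counts, 9 (27.3%) were higher and 1 (3.03%) lower under OGD with the Neat1 lentivirus, beside 12.6% and 10.0% of 5546 protein-coding genes at that level. With control lentivirus 10 were higher and 2 lower, beside 11.7% and 6.82%, and the floor used these libraries. Over the 100 members between 100 and 500 there were 15 higher and 17 lower with the Neat1 lentivirus, beside 20.1% and 14.8% of 4257 protein-coding genes at that level. With control lentivirus there were 11 higher and 18 lower, beside 9.23% and 19.6%. The medians of the 33 were 0.66 with the Neat1 lentivirus and 0.58 with control lentivirus, against 0.01 and 0.19 over protein-coding genes. Across the 133 members, Spearman rho between mean CPM and the OGD ratio was 0.38 with the Neat1 lentivirus and 0.40 with control lentivirus (n = 133 genes, a description, both measures use the same libraries). Over protein-coding genes it was -0.07 and 0.25.

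The number of fingers had a rho of -0.13 with the OGD ratio with the Neat1 lentivirus and -0.05 with control lentivirus. With the Neat1 lentivirus members with 1 to 5 fingers had 8 higher and 3 lower of 43 (18.6% and 6.98%). Members with 6 to 10 fingers had 10 higher and 6 lower of 39 (25.6% and 15.4%). Members with 11 or more had 5 higher and 9 lower of 47 (10.6% and 19.1%). Of protein-coding genes at the floor 15.8% were higher and 12.1% lower. For the Neat1 lentivirus in normal culture, transcript GC had a rho of -0.37 with the ratio over members and -0.21 over protein-coding genes, so GC-rich genes tended to lower ratios in both sets. For OGD the rho of GC over members was 0.31 with the Neat1 lentivirus and 0.14 with control lentivirus, against -0.01 and -0.12 over protein-coding genes.

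Fewer members were past 2-fold for the Neat1 lentivirus than for OGD, as was so over protein-coding genes at the floor. For OGD 15.8% of those genes were higher and 12.1% lower with the Neat1 lentivirus, and 10.6% and 12.4% with control lentivirus. For Neat1 over control lentivirus under OGD, 3 members were at least 2-fold higher (Zfp655, Zfp292 and Zfp81) and 3 lower (Zfp41, Zfp160 and Zfp668). That is 2.26% each, beside 4.55% and 2.82% of protein-coding genes. In normal culture 4 were higher (Zfp212, Zfp945, Zfp992 and Zfp979) and 13 lower, or 3.01% and 9.77%, beside 1.16% and 9.37%. Of the 13 lower, 6 are the genes set apart by the control library in normal culture. The others were Zfp275, Zfp316, Zfp341, Zfp553, Zfp668, Zfp692 and Zfp954.

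The 2 lentivirus comparisons share no library. Their log2 ratios had a Pearson r of 0.03 and a rho of -0.02, and 58 of 133 (43.6%) had the same sign. Over protein-coding genes at the floor r was -0.42, rho was -0.02 and 50.2% had the same sign. Without the genes high in control cells in normal culture, r was 0.04 over 127 members and 0.00 over 9235 protein-coding genes. This change in r is likewise bound up with the choice of the genes left out. Only Zfp668 passed 2-fold the same way in both, 0.752% of members beside 0.459% of protein-coding genes, and no member was higher in both (0.0918% of protein-coding genes were). Zfp668 stood at 6.54 CPM with the Neat1 lentivirus and 15.1 CPM with control lentivirus under OGD, and at 6.10 and 15.5 CPM in normal culture. It was about alike between cultures and apart between lentiviruses. Its ratio under OGD did not stay past 2-fold in every scaling, and 8.97% of its exon bases overlap Zfp646 on the other strand, so reads could be shared.

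Zfp655 stood at 38.2 CPM with the Neat1 lentivirus and 14.1 CPM with control lentivirus under OGD (log2 ratio 1.40, counting interval 1.21 to 1.66), and at 18.3 and 14.7 CPM in normal culture. The library of Neat1-lentivirus cells under OGD alone stood out for this gene. Zfp930 stood at 1.74 and 4.03 CPM under OGD and at 1.77 and 9.23 CPM in normal culture, Neat1 lentivirus before control. In the authors' deposited tables, Zfp365 alone of the members had an adjusted p below 0.05, in normal culture with the Neat1 lentivirus (p = 4.39e-05, adjusted p = 0.00245, by their test on 1 library per group). Of all genes in that deposited table of the authors, 2.61% did. In the authors' other 3 deposited tables no member did, beside 0.0947% of genes for OGD with the Neat1 lentivirus, 1.21% for OGD with control lentivirus and 0.124% for the Neat1 lentivirus under OGD.

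**Figure D4:**
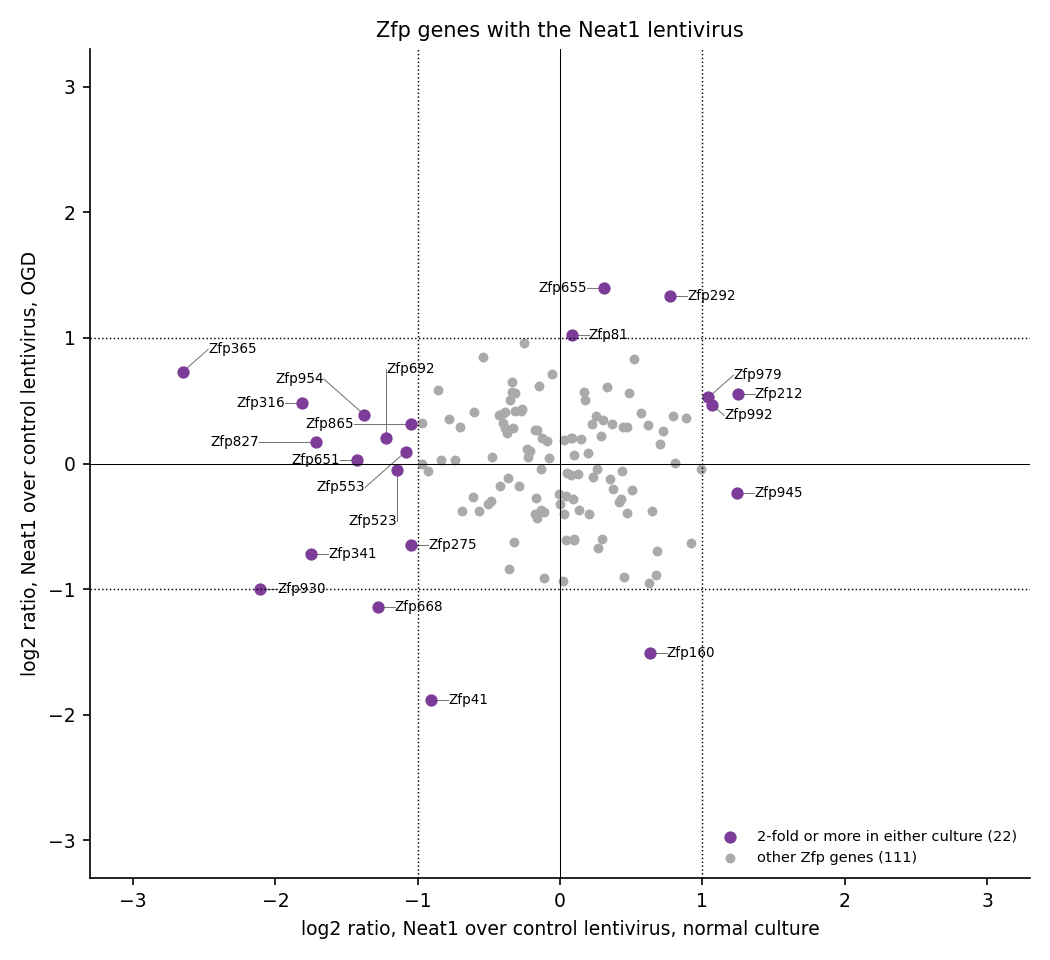
Each point is 1 of 133 Zfp genes, with its log2 ratio of Neat1 over control lentivirus under OGD (vertical) and in normal culture (horizontal), dotted lines at 2-fold. The 22 genes past 2-fold in either culture are named; Zfp668 alone lies past 2-fold in the same direction in both.

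Levels between genes are compared per length. By mean FPKM over the 4 libraries the highest members were Zfp207 at 102, Zfp414 at 86.9, Zfp771 at 71.9, Zfp511 at 67.1, Zfp622 at 56.7 and Zfp358 at 52.9. Zfp414 shares 30.4% of its exon bases with Gm20507 on the same strand, so its reads could be shared. Zfp207 stood at 113.6, 116.2, 87.2 and 90.9 FPKM in the libraries of the Neat1 lentivirus under OGD, control lentivirus under OGD, Neat1 lentivirus in normal culture and control lentivirus in normal culture. The lowest were Zfp704 at 0.780 and Zfp462 at 1.24. The median of the members' mean FPKM was 6.71, against 16.0 over protein-coding genes. Zfp358 at 52.9 and the next gene, Zfp428 at 52.4, are not set apart by these libraries.

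The chromosomes with the most members were chromosome 7 (33 genes), chromosome 17 (14) and chromosome 8 (11). On chromosome 8, 5 were higher and 0 lower under OGD with the Neat1 lentivirus and 4 higher and 2 lower with control lentivirus, of 11. Of 560 protein-coding genes at the floor on that chromosome, 19.5% were higher and 10.0% lower with the Neat1 lentivirus, and 14.5% and 11.1% with control lentivirus. On chromosome 17, 1 was higher and 3 lower of 14 with either. Of 493 protein-coding genes there, 16.4% were higher and 11.4% lower with the Neat1 lentivirus, and 9.53% and 10.8% with control lentivirus. There were 28 pairs of neighbouring members within 200000 bases, of 44 members. Their signs were the same in 15 pairs for OGD with the Neat1 lentivirus and 13 with control lentivirus, about the 50.4% and 50.6% over all pairs. Zfp692 and Zfp672 are 486 bases apart and had OGD ratios of 1.71 and -1.01 with the Neat1 lentivirus, and 0.36 and -0.22 with control lentivirus.

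Other zinc finger families are given for comparison. Of 49 Zbtb, Zkscan, Zscan, Zfhx and Klf genes at the floor, 15 were higher and 4 lower under OGD with the Neat1 lentivirus. That is 30.6% and 8.16%, beside 15.8% and 12.1% of protein-coding genes at the floor. With control lentivirus 11 of the 49 were higher and 3 lower (22.4% and 6.12%), beside 10.6% and 12.4% of protein-coding genes. The floor was set on the control-lentivirus libraries, so nothing is read from the shares with control lentivirus. Of the 11 Klf genes among the 49, regulators of growth and stress genes, 6 were higher and 0 lower with the Neat1 lentivirus, and 5 higher and 1 lower with control lentivirus. The 210 Zfp genes below the floor had medians of 0.00 with the Neat1 lentivirus and -0.42 with control lentivirus. A gene without reads in either library of a comparison counts there as a ratio of 0. Over the 159 of them with at least 20 reads in some library the medians were -0.13 and -0.65. The floor was set on the control-lentivirus libraries, so nothing is read from the medians with control lentivirus.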

How the data were processed

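RNA of HT22 cells was sequenced in 4 libraries, 1 per group. Reads were aligned with TopHat2 to mm10, per the submitters' processing notes. The labels name no counting program and do not say whether strand was used in counting. The authors deposited 4 pairwise tables. Their signal columns hold counts divided by a size factor, per the file headers and values: dividing by the smallest step gave whole reads for 100.0% of values within 1e-06, and these were the same in both tables that hold a library. Columns headed by sample number were read as FPKM from the deposited values, an inference. The p-value columns are the authors' own, deposited from 1 library per group. No column lacked a sample (0).

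Ratios were log2 ratios of the scaled counts with 10 added to each side. Levels were CPM with TMM factors from edgeR 4.0.16 (R 4.3.3), and DESeq2 1.42.0 gave size factors for an alternative. No count model was fitted: an additive fit of culture and lentivirus would leave 1 residual degree of freedom, and it was not run. Of 20089 gene identifiers, 19950 matched GENCODE (GRCm38) and 139 did not. KRAB and finger patterns and near copies (BLAST 2.17.0, at least 90% identity over 80%) came from translated GENCODE coding sequences, used in place of the RefSeq proteins that were planned. Intervals are 95% exact binomial intervals of read ratios. The ratio code was tested on simulated data. Named genes were the 5 highest and 5 lowest per comparison, the 6 highest by FPKM, 3 on each side of the floor and the listed genes; others were named after their values were seen. The members and lists were chosen with earlier results of these data known. Alternatives were other scalings, added values, floors and units.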

Additional observations from a re-analysis of the deposited data

Results flagged for a closer look

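Several genes had opposite signs in the 2 lentivirus groups or the 2 cultures, and none of these differences was tested. Zfp365 had a log2 ratio for OGD of 0.31 with the Neat1 lentivirus and -2.98 with control lentivirus. Its ratio for the Neat1 lentivirus was 0.73 under OGD and -2.65 in normal culture. Both contrasts rest on the control library in normal culture, in which the 16 neuron markers summed to 3719 CPM, and their part in the result was not tested. Zfp316 had a Neat1 lentivirus ratio of 0.48 under OGD and -1.81 in normal culture, and Zfp954 of 0.39 and -1.38. Zfp160 had -1.51 under OGD and 0.63 in normal culture. Zfp296 had an OGD ratio of -1.18 with the Neat1 lentivirus and 0.48 with control lentivirus.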

How the results depend on the processing

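With 1 library per group no library could be left out. No paired analysis was possible because the groups compared share fewer than 2 replicate numbers and the ratios come from no test. A fit blocked on the other factor was not run. For OGD with the Neat1 lentivirus the members' median log2 ratio of 0.17 became -0.022 with a floor of 20, 0.000 with none and 0.66 with a floor of 500; 40, 50 and 9 genes were then higher and 54, 66 and 1 lower. For OGD with control lentivirus the median of 0.11 became -0.19 with total counts, -0.12 in FPKM, and -0.11, -0.21 and 0.58 with those floors. The number higher was 11 with total counts, 12 in FPKM, 35 with no floor and 10 with a floor of 500, and the number lower was 57, 82 and 2 with the 3 floors. Total counts turned the share higher among its called members to 28.9%, against 51.2%. For the Neat1 lentivirus under OGD the median of 0.05 became 0.26 with total counts, 0.29 in FPKM and -0.042 with a floor of 500. The number higher was 6 with total counts, 8 in FPKM, 5 with the floor on 4 libraries, and 18, 33 and 0 with the 3 floors. The number lower was 5 with 1 added, 0 with 50 added, and 13, 16 and 0 with the floors. Called members were 75% higher with total counts. For the Neat1 lentivirus in normal culture the median of -0.08 became 0.028 with the floor on 4 libraries and 0.001 without the 6 genes high in control cells. The number higher was 2 with 50 added, 8 with the floor on 4 libraries, and 19, 35 and 0 with the 3 floors, and the number lower was 41, 66 and 3, and 7 without the 6 genes. The KRAB difference of -0.02 there became 0.18 in FPKM and 0.11 without near copies. The floors change the genes counted, and with no floor a gene without reads in either library counts as a ratio of 0. Total counts and FPKM each move the median of all protein-coding genes by -0.31 for OGD with control lentivirus and by 0.20 for the Neat1 lentivirus under OGD, and the members' medians move the same way. The cause of the other shifts was not tested. Of the named genes' ratios under 6 settings, 1201 moved little, 143 moved and 0 changed sign while called. The setting without the 6 genes and the settings for KRAB were chosen after seeing the data. The 6 were chosen as high in control cells in normal culture. Shifts without them for the Neat1 lentivirus in normal culture follow from that choice.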
